A study of Mus musculus with 16 samples.

Results

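Transcripts of 6 genes of the interleukin-6 family were followed: the ligand genes Il6, Lif, Osm and Clcf1 and the receptor genes Il6ra and Il6st. They were taken by symbol, as the probe sets that the array's annotation gives to exactly 1 of these symbols, and each gene had 1 such probe set. They are 6 of 19272 genes with a single-gene probe set, and all 6 were among the 10236 genes that passed a filter on dim signals. The cells were dendritic cells grown from bone marrow of C57BL/6 mice with 10 ng/mL GM-CSF, a growth factor under which marrow cells become dendritic cells and other myeloid cells. Medium was kept at 290 mOsm/L or raised to 450 mOsm/L by NaCl from day 3. On day 7 the cells were plated for 6 h without LPS or with 10 ng/mL LPS, a bacterial cell wall component sensed by Tlr4. The 4 groups are called 290, 450, 290 with LPS and 450 with LPS, each with 4 arrays, and the labels give the same 4 mice to every group. Values are log2 expression from RMA, which equalises the arrays, so an absolute level is not given and levels of different genes are not compared.

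Cytokines of the interleukin-6 family signal through gp130, the receptor chain encoded by Il6st. Interleukin-6 first binds its own receptor, encoded by Il6ra, which is either on the cell or shed into the medium, and the complex then joins gp130. Leukaemia inhibitory factor (Lif) pairs gp130 with the Lif receptor, oncostatin M (Osm) in the mouse mainly with the receptor encoded by Osmr, and cardiotrophin-like cytokine factor 1 (Clcf1) acts through the ciliary neurotrophic factor receptor together with gp130 and the Lif receptor. Receptor engagement activates Janus kinases and the transcription factor Stat3, and Socs3 feeds back on gp130. Dendritic cells and macrophages make interleukin-6 when Tlr4 is engaged.

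The members matched in RefSeq's promoter table were Il6 and Lif, which rose with LPS, and Il6ra and Il6st, which fell. The stretches before their annotated starts are shown. They are the 250 bases upstream of the start in RefSeq (GRCm38.p6), written 5′ to 3′ on the gene's own strand, and capitals mark every match to the motifs described after them. RefSeq's promoter table matched 4 of the 6 genes; Osm and Clcf1 were not matched.

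Il6 (chr5:30012864-30013113, plus strand): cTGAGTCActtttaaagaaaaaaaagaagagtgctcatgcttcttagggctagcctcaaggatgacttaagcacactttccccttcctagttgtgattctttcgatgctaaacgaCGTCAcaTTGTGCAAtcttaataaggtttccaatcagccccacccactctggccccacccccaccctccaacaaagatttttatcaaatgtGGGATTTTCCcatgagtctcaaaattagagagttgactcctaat

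Lif (chr11:4257318-4257567, plus strand): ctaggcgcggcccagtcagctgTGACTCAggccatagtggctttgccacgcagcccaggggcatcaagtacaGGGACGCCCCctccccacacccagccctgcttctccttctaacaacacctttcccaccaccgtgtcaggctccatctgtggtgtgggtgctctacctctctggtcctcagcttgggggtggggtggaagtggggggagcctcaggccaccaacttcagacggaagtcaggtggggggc

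Il6ra (chr3:89913197-89913446, minus strand): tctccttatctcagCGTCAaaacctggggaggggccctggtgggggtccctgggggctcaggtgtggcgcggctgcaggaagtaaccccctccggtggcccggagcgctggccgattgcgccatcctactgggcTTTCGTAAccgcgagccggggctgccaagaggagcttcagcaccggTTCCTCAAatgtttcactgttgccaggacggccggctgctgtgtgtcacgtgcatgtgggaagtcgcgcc

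Il6st (chr13:112463820-112464069, plus strand): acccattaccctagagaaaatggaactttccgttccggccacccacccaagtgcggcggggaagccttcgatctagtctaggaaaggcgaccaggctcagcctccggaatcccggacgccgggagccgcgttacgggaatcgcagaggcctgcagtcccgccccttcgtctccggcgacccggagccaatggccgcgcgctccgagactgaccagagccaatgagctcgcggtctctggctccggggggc

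Both strands were searched for 7 motifs: the NF-kB motif and the tonicity response motif (each by its consensus), a C/EBP motif (TTNNGNAA), the core of the cyclic AMP response element (TGACG), the AP-1 motif (TGANTCA), a STAT motif (TTCNNNGAA) and an interferon response motif (GAAANNGAA). In Il6 the NF-kB match lay 44 to 35 bases before the start, the C/EBP match at 128 to 121, the core (on the opposite strand) at 135 to 131 and the AP-1 match at 249 to 243. Lif held an NF-kB match at 178 to 169 and an AP-1 match at 228 to 222. Il6ra held C/EBP matches at 116 to 109 and at 70 to 63 and a core at 236 to 232, and Il6st held none of the 7. No matches overlapped. Among 32851 windows of this length in the table, 7.25% held the NF-kB motif, 6.75% the AP-1 motif, 36.8% the C/EBP motif and 17.8% the core. The STAT (7.02%), interferon response (7.13%) and tonicity response (4.31%) motifs were in none of the 4 windows. A match describes the letters only. Lif and Osm are neighbours, with 0 protein-coding genes between them in RefSeq's order.

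Before the members, the cells were compared with their label. Of 14 dendritic cell markers, 10 to 12 had group means above 6.83, the median of all values and the level of the filter, with Itgax, Cd74 and the class II genes H2-Aa, H2-Ab1 and H2-Eb1 far above it and Itgae and Kmo below it in every group. Flt3 was above it only at 290 with LPS (7.3) and read 6.1 to 6.34 in the other groups. Zbtb46 stayed near it, at 6.8 at 290, 6.92 at 450, 7.35 at 290 with LPS and 7.48 at 450 with LPS. All 12 macrophage markers were above the filter level in every group. All 16 neutrophil markers lay above it at 290 in either state, against 7 at 450 and 8 at 450 with LPS. The mean log2 value over the neutrophil list ran from 9.73 to 10.23 on the arrays of 290, 6.89 to 7.10 at 450, 9.87 to 10.31 at 290 with LPS and 7.63 to 7.84 at 450 with LPS. The same mean over 11 mast cell and basophil markers was 6.35 to 6.84, 5.71 to 5.84, 6.84 to 7.36 and 6.20 to 6.28 in that order. Over 5 monocyte markers it was 7.8 to 8.0, 8.34 to 8.68, 8.65 to 8.92 and 8.12 to 8.44, and 4 or 5 of them were above the level. Of 8 lymphocyte markers, 7 or 8 were below the level in each group. Of 7 stromal markers 3 or 4 were below, Dcn, Lum and Pdgfra in every group; their mean was 6.08 to 6.14, 6.30 to 6.50, 6.44 to 6.56 and 6.51 to 6.71. In RNA from whole cultures, fewer cells of a type and less RNA per cell cannot be told apart. Over all genes tested, salt called 20.6% higher and 23.7% lower without LPS, and 16.8% and 21.8% with LPS. For the interaction these shares were 10.7% and 10.4%. Neutrophil markers were called lower with salt in 16 of 16 cases without LPS (median -2.79) and in 15 of 16 with LPS (median -2.31), and mast cell and basophil markers in 6 of 6 and 3 of 6, with 1 called higher with LPS. Of 12 macrophage markers, 2 were called higher and 6 lower without LPS and 1 and 7 with it. Of 5 monocyte markers, 2 were called higher and 1 lower without LPS and 1 and 2 with it, and 4 had a called interaction below 0 (median -0.92). All 4 stromal markers tested were called higher without LPS (median 0.22) and 0 with it. Of 12 dendritic cell markers tested, 3 were called higher and 2 lower without LPS, and 5 and 2 with it. The 1 lymphocyte marker tested was not called. Their part in the members' salt differences and interactions was not tested.

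**Figure D1:**
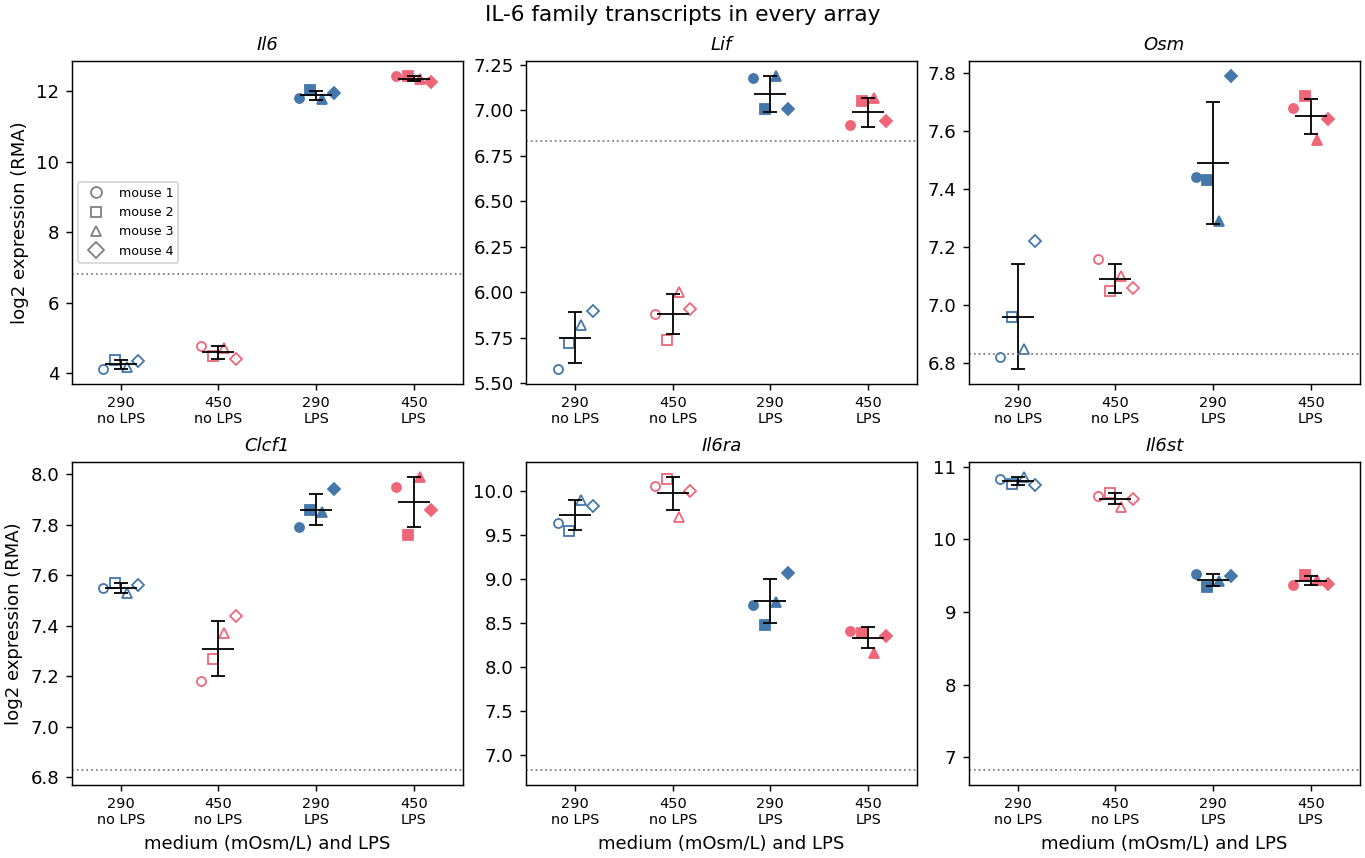
Log2 expression of the 6 genes, 1 panel per gene with its own vertical scale, in the 4 groups; each symbol is 1 array and its shape the mouse, open symbols are without LPS, filled with LPS, blue 290 and red 450 mOsm/L. Black bars are the mean and SD of 4 arrays and the dotted line is the filter level of 6.83; Il6, Lif, Osm and Clcf1 lie higher with LPS and Il6ra and Il6st lower.

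LPS raised all 4 ligand genes and lowered both receptor genes, in either medium. At 290, Il6 rose 197-fold from dim values, Lif 2.53-fold, Osm 1.44-fold and Clcf1 1.24-fold, while Il6ra fell to 50.7% and Il6st to 39.2% of the level without LPS. At 450 the ligands rose 218-fold, 2.16-fold, 1.48-fold and 1.49-fold in the same order, and Il6ra and Il6st fell to 32.1% and 45.5%. Each of these 12 changes had 1 direction in 4 of 4 mice and groups that did not overlap. Of all genes tested, 24.5% lay higher and 44.5% lower without overlap at 290, and 24.4% and 41.8% at 450. By limma with Benjamini-Hochberg adjustment, 4 members were called higher and 2 lower at each osmolarity, beside 26.4% of all genes called higher and 47.1% lower at 290, and 26.4% and 45.3% at 450. The 4 arrays with LPS in each medium alone carried Il6 and Lif past the filter, so for these genes a difference with LPS was built into passing it. The median change of all genes was -0.113 at 290 and moved to 0.017 with cyclic loess scaling, a shift smaller than any of the 12 changes. That scaling also evened the split of calls over all genes, to 3857 higher and 3736 lower at 290 (2702 and 4819 in the values as deposited) and 3722 and 3660 at 450 (2707 and 4641).

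Il6, the founding ligand of the family, had values of 4.13, 4.39, 4.18 and 4.35 at 290 and 4.77, 4.50, 4.71 and 4.40 at 450 in mice 1 to 4. With LPS it reached 11.80, 12.04, 11.77 and 11.94 at 290 and 12.42, 12.43, 12.35 and 12.25 at 450. The 4 groups formed a series without overlap, 290 lowest, then 450, 290 with LPS and 450 with LPS, although the lowest pair was parted by only 0.01. The LPS changes were 7.62 ± 0.09 (log2, SE, n = 4 mice per group; adjusted p = 9.54e-21) and 7.77 ± 0.09 (adjusted p = 6.93e-21). Both start from values below 6.83, where RMA compresses signals and the table does not say what is background, so the folds rest on dim values. Set against 6.83 instead, the means with LPS were 33.3-fold (290) and 46.2-fold (450) above that level.

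Il6 was higher in high salt with LPS present. The difference was 0.47 ± 0.09 (1.39-fold, adjusted p = 0.000273), and the 4 values at 450 lay at least 0.21 above those at 290. Single mice gave 0.62, 0.39, 0.58 and 0.31. Without LPS, where 0 of 8 arrays exceeded 6.83, the dim values differed by 0.33 ± 0.09 (1.26-fold, adjusted p = 0.0047), with 0.64, 0.11, 0.53 and 0.05 in mice 1 to 4. Mice 1 and 3 carried that second difference: without mouse 1 it was 0.23 (adjusted p = 0.07) and without mouse 3 it was 0.27 (adjusted p = 0.0511). Of 2830 genes with means below 5 in both groups without LPS, the median salt change was 0.06 and 0.671% rose by at least as much as Il6. The salt difference of Il6 with LPS exceeded that without LPS by 0.14 ± 0.12 (95% interval -0.11 to 0.39, adjusted p = 0.463), so a difference between the states was not detected.

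Lif, a ligand known for its action on stem cells and in the uterus, read 5.58, 5.72, 5.82 and 5.90 at 290 and 5.88, 5.74, 6.00 and 5.91 at 450. With LPS it read 7.18, 7.01, 7.19 and 7.01 at 290 and 6.92, 7.05, 7.07 and 6.94 at 450. The media overlapped in both states, and every value with LPS was above every value without. LPS changed it by 1.34 ± 0.07 at 290 (adjusted p = 1.09e-11) and by 1.11 ± 0.07 at 450 (adjusted p = 1.41e-10). Both changes start from values below 6.83, and only arrays with LPS carried Lif past the filter. Salt differences were 0.13 ± 0.07 without LPS (95% interval -0.03 to 0.28, adjusted p = 0.165) and -0.10 ± 0.07 with LPS (-0.25 to 0.05, adjusted p = 0.297). The interaction was -0.23 ± 0.10 and did not pass (adjusted p = 0.136).

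Osm, a ligand made by myeloid cells, read 6.82, 6.96, 6.85 and 7.22 at 290 and 7.16, 7.05, 7.10 and 7.06 at 450. With LPS it read 7.44, 7.43, 7.29 and 7.79 at 290 and 7.68, 7.72, 7.57 and 7.64 at 450. LPS values exceeded those without LPS, at 290 by a gap of 0.08, and mouse 4 had the highest value of both groups at 290. The LPS changes were 0.53 ± 0.09 (adjusted p = 5.14e-05) and 0.56 ± 0.09 (adjusted p = 2.6e-05). Salt differences of 0.13 ± 0.09 without LPS (95% interval -0.06 to 0.33, adjusted p = 0.257) and 0.17 ± 0.09 with LPS (-0.03 to 0.36, adjusted p = 0.168) did not pass. Mouse 4 was the only mouse with negative differences (-0.16 and -0.15), so leaving it out had to raise them. Without it they were 0.23 (adjusted p = 0.0159) and 0.27 (adjusted p = 0.00587). Without its 290 array with LPS alone, the second was also 0.27 (adjusted p = 0.0144). Without mouse 1, 2 or 3 they were 0.06, 0.15 and 0.09 in the absence of LPS. With LPS they were then 0.14, 0.12 and 0.13, and none of these passed.

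Clcf1, a ligand that is secreted with a partner chain, read 7.55, 7.57, 7.53 and 7.56 at 290 and 7.18, 7.27, 7.37 and 7.44 at 450. With LPS it read 7.79, 7.86, 7.85 and 7.94 at 290 and 7.95, 7.76, 7.99 and 7.86 at 450. The group at 450 was lowest, then 290, and both LPS groups overlapped above them. Salt without LPS lowered it by 0.24 ± 0.06, to 84.6% of its level (log2 -0.24, adjusted p = 0.00418), in 4 of 4 mice. With LPS the salt difference was 0.03 ± 0.06 (95% interval -0.10 to 0.16, adjusted p = 0.703). LPS raised it by 0.31 ± 0.06 at 290 (adjusted p = 0.000191) and by 0.58 ± 0.06 at 450 (adjusted p = 9.57e-08). The difference between these responses was 0.27 ± 0.09 (adjusted p = 0.0301, larger at 450 in 4 of 4 mice). That call was lost with no filter (adjusted p = 0.0674) and when mouse 1 (0.18, adjusted p = 0.237), mouse 2 (0.30, adjusted p = 0.0754) or mouse 3 (0.26, adjusted p = 0.108) was left out.

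Il6ra encodes the receptor chain that binds interleukin-6. It read 9.63, 9.54, 9.90 and 9.83 at 290 and 10.05, 10.13, 9.70 and 10.00 at 450. With LPS it read 8.70, 8.47, 8.74 and 9.07 at 290 and 8.41, 8.39, 8.16 and 8.35 at 450. The media overlapped without LPS, and with LPS every array at 450 lay below every array at 290, by a gap of 0.06. LPS changed it by -0.98 ± 0.11 at 290 (adjusted p = 4e-07) and by -1.64 ± 0.11 at 450 (adjusted p = 3.36e-10). The fall was larger at 450 by 0.66 ± 0.16 (log2 interaction -0.66, adjusted p = 0.00662), with -0.71, -0.66, -0.37 and -0.89 in the 4 mice. Beside it, 4 of 5 monocyte markers had a called interaction below 0, against 10.4% of all genes. Of 16 neutrophil markers, 3 had a called interaction above 0 and 1 below, beside 10.7% and 10.4% of all genes. In the same order there were 1 and 2 of 12 dendritic cell markers and 1 and 1 of 12 macrophage markers. Mast cell and basophil markers had 2 and 0 of 6, stromal markers 0 and 1 of 4, and the lymphocyte marker was not called. The part of these cell types in the Il6ra interaction was not tested.

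Salt differences of Il6ra ran in opposite directions in the 2 states. Without LPS the difference was 0.24 ± 0.11 and did not pass (95% interval 0.00 to 0.48, adjusted p = 0.0972), with mouse 3 lower at 450 (-0.21) and the other 3 higher. It passed without mouse 3 (0.39, adjusted p = 0.0198), without the array of mouse 3 at 450 alone (0.33, adjusted p = 0.0263), and with quantile normalization (0.30, adjusted p = 0.0403), cyclic loess (0.29, adjusted p = 0.0463) and array weights (0.31, adjusted p = 0.0422). With LPS the difference was -0.42 ± 0.11 (74.8% of the level at 290, adjusted p = 0.00769), lower in 4 of 4 mice, and was lost without mouse 4 (-0.32, adjusted p = 0.0621). Il6ra was the most variable member between mice, with a within-group SD of 0.186, at the 95.4th percentile of the genes tested.

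Il6st encodes gp130, the signalling chain shared by the family. It read 10.83, 10.76, 10.85 and 10.74 at 290 and 10.60, 10.64, 10.45 and 10.55 at 450. With LPS it read 9.52, 9.35, 9.42 and 9.49 at 290 and 9.37, 9.51, 9.44 and 9.39 at 450. The media were apart without LPS, by 0.09, and overlapped with it. LPS changed Il6st by -1.35 ± 0.05 at 290 (adjusted p = 1.58e-13) and -1.14 ± 0.05 at 450 (adjusted p = 1.78e-12). Salt without LPS changed it by -0.23 ± 0.05 (85.1% of the level at 290, adjusted p = 0.00263), in 4 of 4 mice, and salt with LPS by -0.02 ± 0.05 (95% interval -0.13 to 0.10, adjusted p = 0.83). The interaction, 0.22 ± 0.08, did not pass (adjusted p = 0.0578), although it was above 0 in 4 of 4 mice, and it passed with a replicate block as a random term (adjusted p = 0.0495). Its within-group SD, 0.0706, was at the 20.4th percentile.

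**Figure D2:**
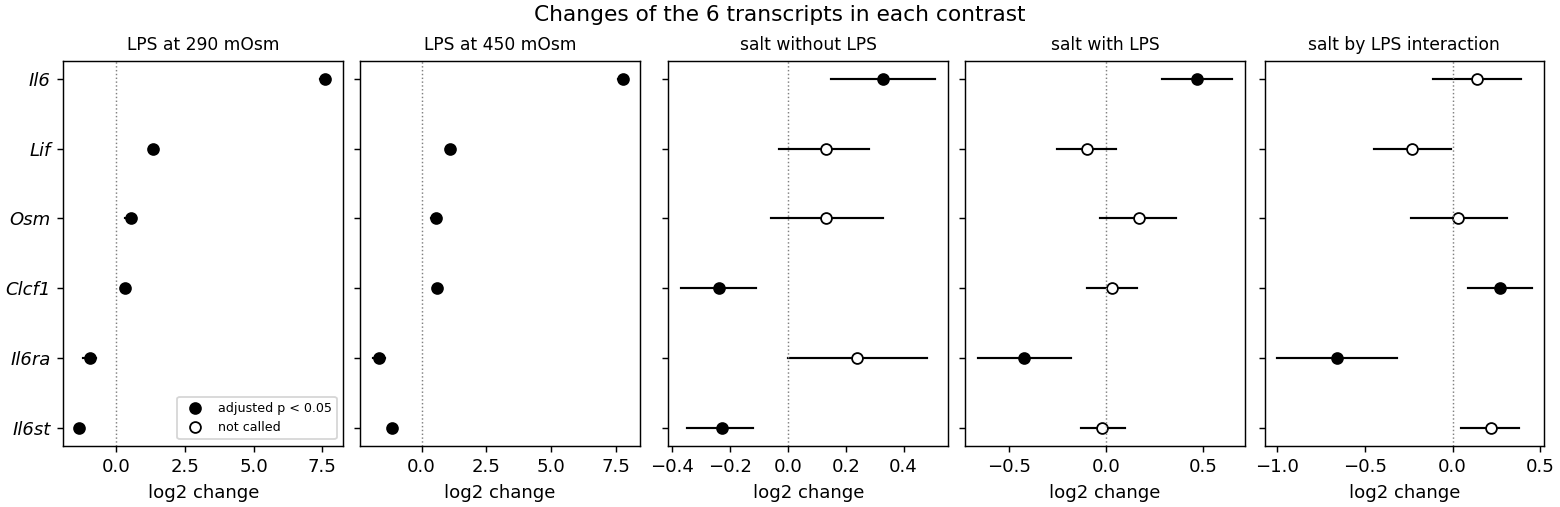
Log2 change of the 6 genes in the 5 contrasts, with limma's 95% interval as a line and a filled point where the adjusted p was under 0.05; each panel has its own horizontal scale. All 12 LPS changes are called, and for salt the points of Il6 lie above 0 in both panels while those of Il6ra lie on opposite sides.

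Among the 6 members, salt without LPS called 1 higher (Il6) and 2 lower (Clcf1 and Il6st), against 20.6% and 23.7% of all genes (2104 and 2426 genes). The split of that background moved with the scaling, to 1335 higher and 3047 lower after median centring, 2277 and 2162 after quantile normalization and 2201 and 2189 after cyclic loess. With LPS 1 was called higher (Il6) and 1 lower (Il6ra), against 16.8% and 21.8%. In the interaction 1 was called higher (Clcf1) and 1 lower (Il6ra), against 10.7% and 10.4%. In either direction together that was 3 of 6 members beside 44.3% of all genes without LPS, 2 of 6 beside 38.6% with LPS, and 2 of 6 beside 21.1% for the interaction.

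Of 14 other ligands and receptors of the family, 11 had a single-gene probe set and 4 passed the filter. Il27, which encodes a subunit of interleukin-27, rose with LPS by 3.20 ± 0.09 at 290 and 3.02 ± 0.09 at 450. Its partner gene Ebi3 rose by 1.84 ± 0.07 and 2.01 ± 0.07, and also rose with salt, by 0.41 ± 0.07 without LPS and 0.58 ± 0.07 with it. The interleukin-27 receptor gene Il27ra fell with LPS, by 0.43 ± 0.08 and 0.59 ± 0.08 (log2 -0.43 and -0.59). Il31, which encodes a cytokine with a receptor related to gp130, stayed near the filter level, with group means from 6.65 to 6.92; it rose by 0.27 ± 0.06 with LPS at 290. Its salt difference without LPS was 0.16 ± 0.06 (adjusted p = 0.0368), and its interaction was -0.27 ± 0.08 (adjusted p = 0.0292). The other 7 did not pass; group means of the receptor gene Lifr were 5.95 to 6.16 and those of Cntfr 6.14 to 6.28.

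Among those 7, Osmr, the oncostatin M receptor gene, was picked out for its values. It read 5.32, 5.48, 5.34 and 5.21 at 290, 5.50, 5.49, 5.51 and 5.62 at 450, and 5.44, 5.64, 5.53 and 5.52 at 290 with LPS. At 450 with LPS it read 7.02, 6.99, 6.68 and 7.20. Only this last group stood apart, above all others, and 3 of its arrays exceeded 6.83, 1 short of the filter's minimum of 4. In the fit with no filter the salt difference with LPS was 1.44 ± 0.09 (2.72-fold, adjusted p = 4.36e-10) against 0.19 ± 0.09 without LPS (adjusted p = 0.105). The LPS response was 1.44 ± 0.09 at 450 (adjusted p = 2.24e-11) and 0.19 ± 0.09 at 290 (adjusted p = 0.0814), and the interaction 1.25 ± 0.12 (adjusted p = 1.25e-06), in 4 of 4 mice. The 3 groups it is compared with lie at dim values, where RMA compresses signals. Because Osmr was picked out by these same values, its adjusted p-values describe them and cannot serve as a test.

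**Figure D3:**
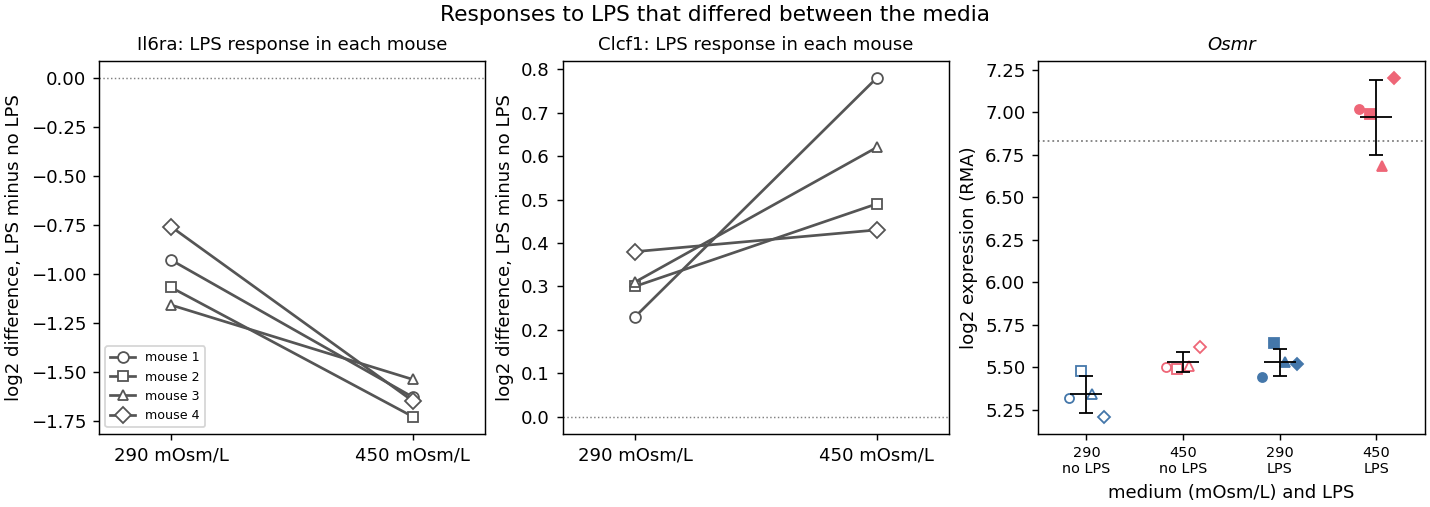
Left and middle: the LPS response of Il6ra and Clcf1 (log2 value with LPS minus without) in each mouse at 290 and 450 mOsm/L, 1 line per mouse; every line falls for Il6ra and rises for Clcf1. Right: log2 expression of Osmr in each array, with mean and SD of 4 arrays and the filter level as a dotted line; the 450 with LPS arrays, 6.68 to 7.20, are above the other 12.

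Downstream of gp130, 18 of 19 genes of signal transduction and feedback were tested. The gene lists were chosen with earlier results of these data known. Their counts and medians beside all genes are therefore descriptive. With LPS at 290, 13 were called higher and 3 lower, with a median of 0.64 against -0.11 over all genes, and at 450 12 and 2, with a median of 0.32 against -0.09. Over all genes 26.4% were called higher in either medium, and 47.1% (at 290) or 45.3% (at 450) lower. Socs3, the feedback inhibitor of gp130, rose by 3.91 ± 0.08 at 290 and 4.16 ± 0.08 at 450. Socs1, another inhibitor of Janus kinases, rose by 2.43 ± 0.11 and 2.09 ± 0.11, and the kinase gene Jak2 by 2.34 ± 0.08 and 2.48 ± 0.08. Salt without LPS called 5 higher and 1 lower (median 0.07; 20.6% and 23.7% of all genes): Socs2, an inhibitor known for growth hormone signalling, rose by 0.94 ± 0.11, Stat5a by 0.35 ± 0.08, and the adaptor gene Shc1 fell by 0.32 ± 0.06 (log2 -0.32). Salt with LPS called 7 higher and 3 lower (median 0.11; 16.8% and 21.8% of all genes). There the Stat5-induced inhibitor gene Cish rose by 0.87 ± 0.08, the adaptor gene Gab1 rose by 0.84 ± 0.07, and Ptpn6, which encodes the phosphatase SHP-1, fell by 0.75 ± 0.06 (log2 -0.75). All these changes had adjusted p at most 0.00229. In the interaction 2 were called higher and 4 lower (median 0.05; 10.7% and 10.4% of all genes), led by Gab1 (0.86 ± 0.10), Cish (0.79 ± 0.11) and Ptpn6 (-0.77 ± 0.08).

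All 18 genes listed as Stat3 targets were tested; many of them have other inducers. LPS called 13 higher and 3 lower at 290 (median 0.84) and 14 and 2 at 450 (median 1.18), beside the same shares of all genes. The acute-phase gene Saa3 rose by 4.96 ± 0.14 at 290 and 3.05 ± 0.14 at 450. Il10, an anti-inflammatory cytokine gene, rose by 4.39 ± 0.12 at 290 and 5.88 ± 0.12 at 450. Timp1, a metalloproteinase inhibitor gene, rose by 3.16 ± 0.15 at 290 and 4.72 ± 0.15 at 450. Salt without LPS called 5 higher and 6 lower (median -0.01; 20.6% and 23.7% of all genes), with Saa3 at 2.11 ± 0.14, the cyclin gene Ccnd1 at -1.30 ± 0.13 and Fos at -1.07 ± 0.12. Salt with LPS called 8 higher and 5 lower (median 0.19; 16.8% and 21.8% of all genes), with the angiogenic factor gene Vegfa at 2.02 ± 0.11, Il10 at 1.5 ± 0.12 and Ccnd1 at -1.2 ± 0.13. In the interaction 10 were called higher and 2 lower (median 0.41 against 0.00 over all genes, of which 10.7% and 10.4% were called), led by Vegfa (2.11 ± 0.15), Saa3 (-1.90 ± 0.20) and Timp1 (1.56 ± 0.21).

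Of 17 genes that act on Il6 transcription or on decay of its mRNA, 16 were tested. LPS called 11 higher and 3 lower in either medium, with medians of 0.79 at 290 and 0.77 at 450, beside 26.4% of all genes called higher and 47.1% or 45.3% lower. Nfkbiz, a nuclear cofactor of NF-kB needed for Il6 induction, rose by 3.06 ± 0.10 and 2.82 ± 0.10, and Irf1 by 2.30 ± 0.05 and 1.89 ± 0.05. Zc3h12a, whose product cleaves Il6 mRNA, rose by 1.69 ± 0.07 at 290 and 2.02 ± 0.07 at 450. Fos was lower by 1.82 ± 0.12 with LPS at 290 (log2 -1.82). Salt without LPS called 2 higher and 6 lower (median -0.05; 20.6% and 23.7% of all genes), including Fos, named above, Zfp36, whose product destabilises cytokine mRNAs (-0.54 ± 0.06), and Atf3, a repressor of Il6 (-0.40 ± 0.07). Salt with LPS called 3 higher and 6 lower (median -0.11; 16.8% and 21.8% of all genes), with Nfat5, the osmotic response factor, at 0.64 ± 0.09, Cebpd at -0.50 ± 0.08 and Fos at -0.46 ± 0.12. The interaction called 6 higher and 2 lower (median -0.07; 10.7% and 10.4% of all genes), led by Cebpd (-0.78 ± 0.11), Nfat5 (0.67 ± 0.13) and Fos (0.61 ± 0.18). Fos and Cebpd are on this list and the Stat3 list, and Socs3 on the Stat3 and gp130 lists, so their counts are not independent.

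All 6 genes listed for receptor shedding were tested, and LPS called 4 higher and 2 lower in each medium (medians 0.30 and 0.22), while 73.5% of all genes at 290 and 71.8% at 450 were called in either direction. Adam10, a protease known to shed the interleukin-6 receptor, fell by 1.2 ± 0.06 at 290 and 1.47 ± 0.06 at 450 (log2 -1.2 and -1.47). Rhbdf2, which matures the protease Adam17, rose by 1.47 ± 0.06 and 1.44 ± 0.06, and the inhibitor gene Timp3 by 0.91 ± 0.11 and 1.12 ± 0.11. Salt without LPS called 1 higher, Rhbdf2 (0.15 ± 0.06, adjusted p = 0.043), and 0 lower, beside 20.6% and 23.7% of all genes. Salt with LPS called 0 higher and 2 lower, Adam17 (-0.20 ± 0.06) and Adam10 (-0.19 ± 0.06), beside 16.8% and 21.8%. The interaction called 0 higher and 2 lower, beside 10.7% and 10.4% of all genes, with Adam10 at -0.27 ± 0.08 (adjusted p = 0.0187).

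**Figure D4:**
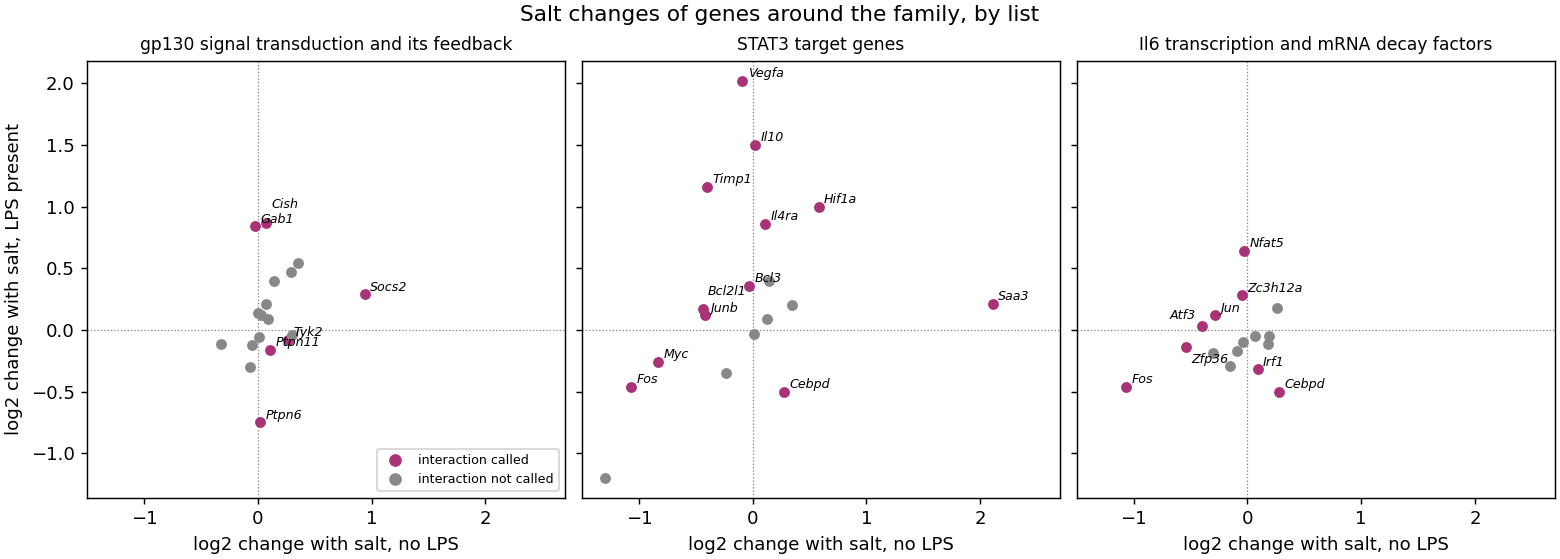
Log2 change with salt in the absence (horizontal) and presence (vertical) of LPS for the tested genes of 3 lists, 1 point per gene. Purple, named points have a called salt by LPS interaction; Vegfa, Il10 and Timp1 lie high with LPS present, and Saa3 far to the right without it.

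The genes whose patterns were most like those of a member were found among 9883 tested genes, by the root mean square difference between centred log2 values over the 16 arrays. For Il6 they were Nos2 (0.68), Il12b (0.75) and Cxcl10 (0.83), so no gene tracked its amplitude closely. For Lif they were Rasa4 (0.11), Lrch1 (0.11) and Usp25 (0.12). Il6ra was matched by Trp53inp2 (0.12), Socs6 (0.13) and Nfam1 (0.13), which had interactions of -0.74, -0.64 and -0.49 beside its -0.66. These genes were picked by the same 16 arrays that give the interaction, so a similar value was built into the choice. Il6st was matched by Blvra (0.09), Umps (0.10) and Dhrs7 (0.10). Osm and Clcf1 spanned less than 1 between group means and were not matched.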

How the data were processed

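Affymetrix Mouse Gene 1.0 ST arrays measured RNA of 16 cultures. The deposited table holds log2 expression per probe set, which the authors made with RMA in oligo, per the submitters' processing notes; for its version, any filter and the genome build, nothing is given in the sources consulted. Low signals are compressed by RMA, and shifts of most transcripts are removed.

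Of 22549 probe sets, 20646 had 1 gene symbol, 551 several and 1352 none; by Entrez identifier 20596 were found in RefSeq's gene table (GRCm38.p6), which changed 0 symbols. A probe set needed 4 arrays above 6.83, which is the table's median, to be kept (12097 were), and the highest-mean probe set stood for a gene (10236 genes). limma 3.58.1 in R 4.3.3 fitted a mean per group (12 residual and 5.53 prior degrees of freedom), with 5 two-sided contrasts. In each contrast p-values were adjusted by Benjamini-Hochberg across the genes tested, and 0.05 was the threshold. The fit was checked on simulated arrays. The number of arrays limits the precision.

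The members and lists were chosen with earlier results of these data known. Beside the members, the text names up to 3 called genes of each list per contrast, by size of change with 1 sign in 4 mice, and the 3 genes most like each member that spans at least 1, without predicted and small RNA genes. The alternatives are given in the closing section.

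Replicate numbers pair the samples, since the labels give each number to 1 mouse in every group. Deviations from group means had a median r of 0.0953 across genes over 24 pairs of arrays of 1 mouse (-0.146 to 0.433), and -0.0351 between mice. Whether cultures of 1 mouse were shared up to day 7 was not tested.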

Additional observations from a re-analysis of the deposited data

Results flagged for a closer look

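For 2 members the LPS response differed between the media by the interaction test: Il6ra at -0.66 and Clcf1 at 0.27 on the log2 scale. The Clcf1 value did not hold its call in several alternatives. Outside the members, Osmr, picked out for its values, differed by 1.25 in the fit with no filter.

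Genes of the lists were named for the interaction only where it was called, so their calls are no separate result. Above 0, with a salt change more positive (for Fos, less negative) in the presence of LPS, were Vegfa (2.11), Timp1 (1.56), Gab1 (0.86), Cish (0.79), Nfat5 (0.67) and Fos (0.61). Below 0 were Saa3 (-1.90), Cebpd (-0.78), Ptpn6 (-0.77), Il31 (-0.27) and Adam10 (-0.27). Some list genes named only for other contrasts had called interactions: Il10 (1.49), Atf3 (0.43), Zfp36 (0.41), Zc3h12a (0.33), Socs2 (-0.65), Irf1 (-0.41) and Adam17 (-0.28). Others so named had none: Il27, Ebi3, Il27ra, Socs1, Socs3, Jak2, Stat5a, Shc1, Ccnd1, Nfkbiz, Rhbdf2 and Timp3. Of all genes tested, 21.1% had a called interaction.

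Of 28 sets of 4 arrays examined for a distant value (the members and Osmr in each group), 1 had it: Osmr at 450 without LPS, where mouse 4 read 5.62 and the other 3 between 5.49 and 5.51. Chance gives about 1 in 20 such sets.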

How the results depend on the processing

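Calls of the members and counts of called genes were recomputed under other filters, scalings, probe set and variance rules, array weights, samples, replicate blocks, and without each mouse or array. Apart from leaving out mice or arrays, 303 of 314 member values kept their direction and side of the threshold. The 11 exceptions follow. With no filter the Clcf1 interaction lost its call (0.27, adjusted p = 0.0674), and its salt difference with LPS was -0.001 after median centring. The Il6ra salt difference without LPS passed with quantile normalization (0.30), cyclic loess (0.29) and array weights (0.31). The Il6st salt difference with LPS turned to 0.03 with quantile normalization and 0.03 with cyclic loess. The Il6st interaction of 0.22 passed with the stricter filter (adjusted p = 0.0424), quantile normalization (0.22, adjusted p = 0.0285), trended robust variance (0.22, adjusted p = 0.0423) and the replicate block as a random term (0.22, adjusted p = 0.0495). The cause of these was not tested. Lif and Osm had no value under the stricter filter.

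With a replicate block as a fixed term the counts of called genes were 4763 (salt without LPS), 4225 (salt with LPS), 7617 and 7468 (LPS at 290 and 450) and 2359 (interaction), against 4530, 3956, 7521, 7348 and 2161 without it, and no call of a member changed. Apart from leaving out mice or arrays, all 54 such counts stayed within 1.5 times, but which direction held more calls turned for salt without LPS with no filter (3046 higher, 2381 lower), quantile normalization (2277, 2162) and cyclic loess (2201, 2189). It turned for LPS at 290 (3857, 3736) and at 450 (3722, 3660) with cyclic loess. For the interaction, at 1097 and 1064, it turned in 5 such settings and in 10 that left out a mouse or an array.

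Leaving out a mouse or an array, 569 of 600 member values kept direction and side. Ranges of those with exceptions were as follows: genes called in the interaction 1383 to 2266, with 1383 without mouse 2; Il6 salt without LPS 0.23 to 0.43; Osm salt without LPS 0.06 to 0.23, salt with LPS 0.10 to 0.27 and interaction -0.05 to 0.14. Clcf1 salt with LPS ran from -0.01 to 0.08 and its interaction from 0.18 to 0.35, with 11 of 20 fits losing the call. Il6ra salt without LPS ran from 0.13 to 0.39 and with LPS from -0.53 to -0.31; its interaction ran from -0.75 to -0.55 and kept its call (adjusted p up to 0.0488). Il6st salt with LPS ran from -0.08 to 0.03 and its interaction from 0.15 to 0.26. For Osmr, whose alternatives were chosen after seeing the data, the LPS response at 290 passed with median centring (0.22, adjusted p = 0.0379) and with only the groups compared (adjusted p = 0.0358), and without mouse 2 at 290 (0.24, adjusted p = 0.0404) or mouse 3 at 450 with LPS (0.19, adjusted p = 0.029). Without that last array its salt difference without LPS passed too (0.19, adjusted p = 0.0464), and the called values kept their calls. Levels below 6.83 limit Il6 and Lif without LPS, and Osmr outside 450 with LPS.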
